A study of Mus musculus with 6 samples.

Results

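The 42 germline and meiosis genes followed here were a chosen list of genes that work in the making of eggs and sperm and are mostly silent in other adult tissues. Their methylation was read by whole-genome bisulfite sequencing in endothelial cells, the lining of blood vessels, which were sorted by flow cytometry from the lungs of mice. There were 3 samples of Dnmt3a knockout mice (KO) and 3 of wild-type mice (WT), and the question was which of these genes keep methylation at their start without Dnmt3a. The labels do not give the driver or allele of the deletion, or the age of the mice, and do not tell separate animals from repeats of 1 animal, so each p-value reflects sample-to-sample spread that may be technical. Each level is the methylation level of a 1 kb tile in percent, on chromosomes 1 to 19 of mm10, and comes without read counts, so the depth behind it is unknown. A level averages over cells, and loss in some cells and partial loss in every cell cannot be told apart.

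Of the 42 genes, 36 had a strand and a start in the RefSeq promoter table, against 16077 protein-coding genes in all. Their start region was the mean of the tiles overlapping 1 kb on each side of the most upstream listed start. A gene body, the mean of tiles at least 1 kb inside both gene ends, was measured for 39 of the 42 genes, against 15364 protein-coding genes in all. Nanos2, Nanos3 and Tex101 were too short for a body. Tex15, Rnf17, Dmrt1, Piwil2, Spo11 and Tdrd6 had no entry in the promoter table. RNA was not measured in the files used here, so silence of these genes in the sorted cells is background and not a result.

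DNA methylation at CpG sites is written on unmethylated DNA by the de novo enzymes DNMT3A and DNMT3B and is copied at cell division by DNMT1. Many germline genes start in CpG-rich DNA that is methylated around implantation, where a variant Polycomb complex with the E2F6, MGA and MAX proteins binds, and they stay methylated in somatic tissues. This sets them apart from most CpG-rich starts, which remain unmethylated.

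The 250 bases before 8 of the starts are printed here from RefSeq (GRCm38.p6, the assembly of mm10), 5′ to 3′ on the gene's own strand, with each CpG in capitals. The first 4 are the start regions that lost most methylation in KO. They are Hormad2 (chr11:4441083-4441332, minus strand), Stk31 (chr6:49395289-49395538, plus strand), Sycp2 (chr2:178407659-178407908, minus strand) and Dmrtb1 (chr4:107684231-107684480, minus strand). The other 4 are the methylated start regions with the smallest difference between KO and WT. They are Tex101 (chr7:24672051-24672300, minus strand), Sycp1 (chr3:102936101-102936350, minus strand), Smc1b (chr15:85131958-85132207, minus strand) and Tdrd9 (chr12:111971309-111971558, plus strand).
Hormad2: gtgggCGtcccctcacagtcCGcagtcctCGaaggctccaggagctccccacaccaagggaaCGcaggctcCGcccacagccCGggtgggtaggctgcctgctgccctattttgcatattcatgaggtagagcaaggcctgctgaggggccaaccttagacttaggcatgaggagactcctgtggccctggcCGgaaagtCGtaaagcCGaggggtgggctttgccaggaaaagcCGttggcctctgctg
Stk31: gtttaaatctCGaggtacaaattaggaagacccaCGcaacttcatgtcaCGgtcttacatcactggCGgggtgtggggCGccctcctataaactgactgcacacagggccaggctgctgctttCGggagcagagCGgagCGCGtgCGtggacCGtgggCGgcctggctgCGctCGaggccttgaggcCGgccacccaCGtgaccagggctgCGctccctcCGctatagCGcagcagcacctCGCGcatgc
Sycp2: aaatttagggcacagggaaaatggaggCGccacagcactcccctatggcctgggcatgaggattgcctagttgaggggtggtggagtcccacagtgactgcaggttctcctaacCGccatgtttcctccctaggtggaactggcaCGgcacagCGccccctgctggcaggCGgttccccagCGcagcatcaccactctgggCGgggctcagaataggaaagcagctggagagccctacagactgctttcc
Dmrtb1: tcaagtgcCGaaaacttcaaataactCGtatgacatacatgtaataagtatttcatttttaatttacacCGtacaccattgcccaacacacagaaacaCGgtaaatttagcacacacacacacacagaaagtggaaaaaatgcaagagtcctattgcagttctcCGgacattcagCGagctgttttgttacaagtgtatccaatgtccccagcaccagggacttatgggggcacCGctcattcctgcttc
Tex101: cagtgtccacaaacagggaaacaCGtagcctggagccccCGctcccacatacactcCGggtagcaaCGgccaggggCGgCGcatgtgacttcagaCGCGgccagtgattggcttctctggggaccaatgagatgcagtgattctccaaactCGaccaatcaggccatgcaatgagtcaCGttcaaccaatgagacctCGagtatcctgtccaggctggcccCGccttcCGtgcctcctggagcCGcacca
Sycp1: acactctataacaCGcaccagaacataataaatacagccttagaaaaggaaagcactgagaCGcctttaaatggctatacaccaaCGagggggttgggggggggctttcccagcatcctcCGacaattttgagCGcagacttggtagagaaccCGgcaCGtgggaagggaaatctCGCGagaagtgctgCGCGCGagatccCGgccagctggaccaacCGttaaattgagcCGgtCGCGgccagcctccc
Smc1b: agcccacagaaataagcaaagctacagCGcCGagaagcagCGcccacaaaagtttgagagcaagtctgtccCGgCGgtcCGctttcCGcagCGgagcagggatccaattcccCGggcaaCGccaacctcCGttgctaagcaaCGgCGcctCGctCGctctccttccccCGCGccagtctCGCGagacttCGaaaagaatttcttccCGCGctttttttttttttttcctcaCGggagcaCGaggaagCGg
Tdrd9: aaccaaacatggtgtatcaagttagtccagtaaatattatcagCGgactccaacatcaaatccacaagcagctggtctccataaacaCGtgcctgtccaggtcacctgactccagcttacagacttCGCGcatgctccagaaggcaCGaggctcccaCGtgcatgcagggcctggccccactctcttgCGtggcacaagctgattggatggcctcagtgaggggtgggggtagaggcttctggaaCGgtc

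Both sets held CpG-rich and CpG-poor sequences. Stk31 had 21 CpG sites in its 250 bases, Hormad2 10, and Sycp2 and Dmrtb1 7 each, while Smc1b had 25, Sycp1 17, Tex101 14 and Tdrd9 8. Over all 36 genes the median was 13 CpG sites, with 0 in Nanos2 and 40 in Tdrd5, against 11 over the 16077 genes and 2 over the 4830 genes whose start region averaged at least 50% methylation. Among the 26 germline starts of at least 50%, the median was 10 CpG sites in the 11 that were called lower in KO and 15 in the 15 that were not. Across the 36 genes, CpG count and the KO minus WT difference had a Pearson r of 0.15, a description over genes of the same 6 samples.

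A pair of motifs tied to the repression of germline genes was counted on both strands of the same 250 bases. CACGTG, the E-box read by MGA and MAX, is the same on both strands and was found in 13 of 36 germline genes, a share of 36.1%, against 6.85% of all 16077 genes. Limited to sequences with at least 10 CpG sites, the shares were 44.4% of 27 germline genes and 9.75% of all such genes. It was present before Stk31, Sycp1 and Tdrd9 above, and in 6 of the 16 genes called lower and 7 of the 20 not called. GCGGGA, a core of E2F-type sites, was found in 10 of 36 germline genes, a share of 27.8%, against 22.6% of all genes. Limited to sequences with at least 10 CpG sites, the shares were 37.0% of 27 germline genes and 37.6% of all such genes. It was present in 7 of the 16 genes called lower, Dmc1, Rec8, Syce2, Ddx4, Mael, Sycp3 and Tex14, and in 3 of the 20 not called, Hormad1, Smc1b and Tdrd5. These are counts of letters in a window, and binding was not measured.

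Most start regions of germline genes were methylated in WT endothelium, 27 of 36 with a mean of at least 50%, and most had a lower mean in KO. Of the 36, 16 were called lower, with a limma p adjusted over all 16077 genes under 0.05 and a loss of at least 10 points, where a point is 1% methylation. The share was 44.4%, against a background of 16.5% of all start regions called lower, and 0 of 36 were called higher, against 0.0435% of all. None of the 36 was higher even at an unadjusted p under 0.05 by limma, and 35 had a lower mean in KO. The median difference was -8.09 points over the germline genes and -4.43 points over all genes. Among start regions with a mean of at least 50% over the 6 samples, 11 of 26 germline genes were called lower, against 15.1% of all 4830 such genes. Among those at 10 to 50%, 5 of 10 were called, against 20.6% of all such genes. In 27 of the 36 every KO sample lay below every WT sample, a pattern also seen in 55.3% of all start regions, and in 0 every KO sample lay above every WT sample, against 0.79% of all.

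Tile levels as a whole were lower in KO, and centring or scaling the samples changed the count. The median tile level differed by -4.89 points between KO and WT. With each sample centred on its median tile, 5 of the 36 germline start regions were called lower (Hormad2, Stk31, Sycp2, Dmrtb1 and Slc25a31), against 6.73% of all genes. With each sample scaled to one mean level, 4 were called lower (Hormad2, Stk31, Sycp2 and Syce2), against 9.73% of all genes. Hormad2, Stk31 and Sycp2 were called under all of these scalings.

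**Figure D1:**
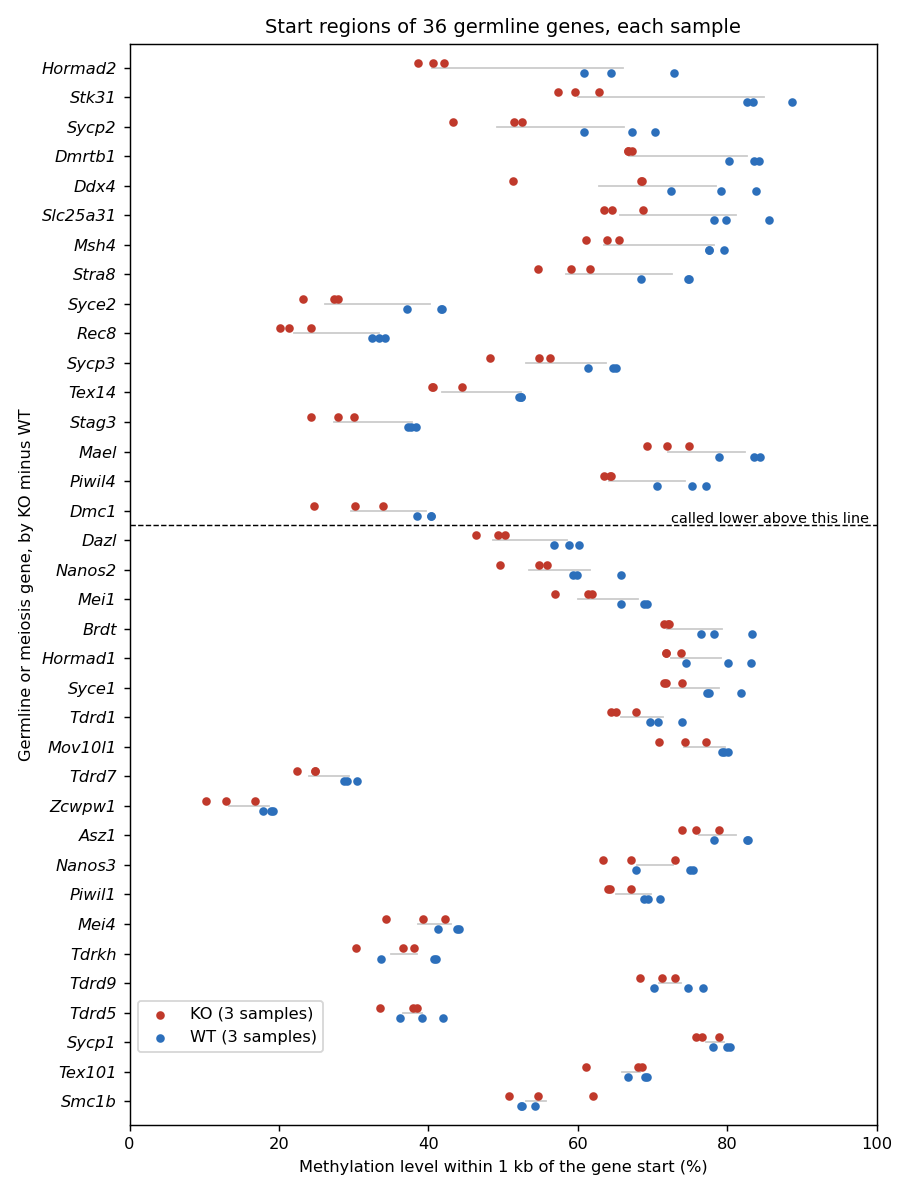
Methylation level in percent within 1 kb of the start of each of 36 germline genes, 1 point per sample, with KO above WT in each row and a grey line joining the group means. Genes are ordered by KO minus WT from -25.6 points (Hormad2) to 2.73 points (Smc1b), and the 16 genes above the dashed line were called lower in KO.

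The largest losses at the start were those of Hormad2, Stk31 and Sycp2. Hormad2, whose protein marks chromosome axes that have not paired (start at 4441082 on chromosome 11), had 38.6, 40.6 and 42.1% in KO samples 1 to 3, against 60.8, 72.9 and 64.4% in WT samples 1 to 3. The difference was -25.6 points (95% interval -32.6 to -18.6, limma adjusted p = 0.000143). Stk31, a testis protein with a tudor and a kinase-like domain (start at 49395539 on chromosome 6), had 62.9, 57.3 and 59.6% in KO, against 83.5, 88.6 and 82.6% in WT over the 2 tiles of its window. Its difference was -25.0 points (95% interval -30.8 to -19.1, limma adjusted p = 5.66e-05). For both genes the groups were far apart, with a gap between the highest KO and the lowest WT sample wider than the range within either group.

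Of the 10 genes of the chromosome axis and the synaptonemal complex, the protein ladder that joins paired chromosomes in meiosis, 6 were called lower at the start. The background was 16.5% of all start regions, and the median difference over the 10 genes was -10.5 points. Sycp2, a lateral element protein (start at 178407658 on chromosome 2), had 43.3, 52.5 and 51.5% in KO, against 60.8, 67.3 and 70.3% in WT, a difference of -17.0 points (limma adjusted p = 0.00235). Syce2, a central element protein, had 28.0, 23.2 and 27.4% in KO, against 41.8, 41.6 and 37.1% in WT, a difference of -14.0 points. Neither pair of groups overlapped. Rec8, the meiotic cohesin subunit that holds sister chromatids together, had 20.2, 24.3 and 21.4% in KO, against 33.4, 34.2 and 32.5% in WT. Sycp3, the partner of Sycp2 in the lateral element, had 48.2, 56.3 and 54.7% in KO, against 61.3, 64.8 and 65.1% in WT. Stag3, another meiotic cohesin subunit, had 24.2, 27.9 and 30.0% in KO, against 38.4, 37.3 and 37.6% in WT. Their differences were -11.4 (Rec8), -10.7 (Sycp3) and -10.4 points (Stag3), again with no overlap between groups. The Stag3 window also holds the start of Gpc2 on the other strand, and its level cannot be assigned to 1 of them. Syce1 and Hormad1 were not called over the whole window, at -6.51 and -6.80 points, though the tile at their start was, as given below.

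Other members of the same protein structures showed little difference. Sycp1, the transverse filament that spans the ladder, had 75.8, 76.6 and 78.8% in KO, against 80.0, 78.1 and 80.4% in WT. Smc1b, the meiotic partner of Rec8 in cohesin, had 50.7, 62.0 and 54.6% in KO, against 52.4, 52.5 and 54.3% in WT. In both genes the groups overlapped. The difference was -2.40 points at Sycp1 (95% interval -7.29 to 2.49) and 2.73 points at Smc1b (95% interval -3.91 to 9.38), so both intervals leave out a loss of 10 points. Smc1b was the 1 gene of 36 with a higher mean in KO, and without KO replicate 2 its difference was -0.39 points. Its window also holds the start of Ribc2 on the other strand.

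Of the 12 genes of the piRNA pathway and of germ granules with a start, 4 were called lower, against 16.5% of all start regions. This pathway uses small RNAs to silence transposons in germ cells. Besides Stk31 these were Ddx4, the germ cell RNA helicase known as Vasa, Mael, needed for transposon silencing, and Piwil4, the nuclear Piwi protein that directs DNA methylation in fetal male germ cells. Ddx4 had 51.4, 68.6 and 68.5% in KO, against 79.2, 83.9 and 72.4% in WT. The groups did not overlap, but KO replicate 1 lay far below the other KO samples, and without it the difference was -9.97 points and was not called, against -15.7 points with all samples (limma adjusted p = 0.0207). Ddx4 was also not called without WT replicate 1 or WT replicate 2, at limma adjusted p = 0.053 and 0.0734, and its call ended in a fit with no variance trend (limma adjusted p = 0.0502). Mael averaged 72.0 ± 2.78% in KO and 82.3 ± 2.95% in WT (SD, n = 3 each), with samples of 69.3, 72.0 and 74.9% in KO against 84.4, 78.9 and 83.6% in WT. Piwil4 averaged 64.1 ± 0.485% in KO and 74.3 ± 3.41% in WT. Both losses were 10.2 points in size, just past the limit of 10 points.

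The other 8 genes of the pathway were not called at the start, and 5 of them averaged at least 65.1% in KO. Tdrd9, a helicase of fetal germ cells, had 68.4, 71.2 and 72.9% in KO, against 70.1, 74.7 and 76.7% in WT. Piwil1, the Piwi protein of late spermatogenesis, had 67.1, 64.0 and 64.3% in KO, against 68.9, 69.4 and 71.0% in WT. Asz1, a germ granule protein at mitochondria, had 73.9, 75.9 and 78.9% in KO, against 82.6, 82.8 and 78.2% in WT. The groups overlapped at Tdrd9 and Asz1 and did not at Piwil1. Over the whole window the 95% interval left out a loss of 10 points at Tdrd9 (-8.78 to 2.74) and Piwil1 (-9.71 to 0.39), not at Asz1 (-10.5 to 0.45). The start tile alone differed by -11.5 points at Piwil1 and by -6.79 points at Tdrd9. Mov10l1, a helicase that loads piRNA precursors, had 74.3, 70.9 and 77.2% in KO, against 80.0, 79.6 and 79.3% in WT. Tdrd1, a tudor scaffold of germ granules, had 67.8, 65.2 and 64.4% in KO, against 74.0, 70.7 and 69.7% in WT. Neither of these overlapped, with differences of -5.50 (Mov10l1, adjusted p = 0.0853) and -5.67 points (Tdrd1, adjusted p = 0.0766, limma). Tdrd5, Tdrkh and Tdrd7, further tudor proteins, had start regions under 50%, and their differences ran from -5.41 (Tdrd7) to -2.44 points (Tdrd5). The Tdrkh window also holds the start of 1700040D17Rik on the other strand.

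Of the 5 recombination genes with a start, 2 were called lower, against 16.5% of all start regions. Msh4, which stabilises crossover intermediates (start at 153904891 on chromosome 3), had 63.9, 61.0 and 65.4% in KO, against 77.5, 77.5 and 79.5% in WT, a difference of -14.7 points (limma adjusted p = 0.00067). Dmc1, the meiotic recombinase, had 30.2, 24.7 and 33.9% in KO, against 40.4, 38.4 and 40.4% in WT, a difference of -10.1 points. Both genes had groups that did not overlap. Mei1, needed for the breaks that start recombination, differed by -7.95 points and Mei4, with a like role, by -4.45 points. Zcwpw1, a histone reader that helps repair those breaks, had the lowest start region of the 36 genes, with 16.7, 12.8 and 10.3% in KO, against 19.13, 17.88 and 18.92% in WT. Its difference of -5.37 points passed the adjusted p (0.0179, limma) and not the minimum of 10 points.

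Among 6 regulators of germ cell fate with a start, Dmrtb1 and Stra8 were called lower, against 16.5% of all start regions. Dmrtb1, a transcription factor at the switch from mitosis to meiosis in the testis (start at 107684230 on chromosome 4), had 67.2, 66.7 and 66.8% in KO, against 80.2, 84.2 and 83.5% in WT, a difference of -15.7 points (limma adjusted p = 0.000367). At the far end of its gene span, 19.8 kb upstream of the listed start, the difference was -7.64 points and was not called. Stra8, which retinoic acid induces at entry into meiosis, had 54.7, 59.0 and 61.6% in KO, against 74.7, 74.8 and 68.4% in WT, a difference of -14.2 points. Neither gene's groups overlapped. Dazl, an RNA-binding protein of germ cells, lay just outside the limit, with 46.4, 50.2 and 49.3% in KO, against 60.1, 58.8 and 56.7% in WT and a difference of -9.93 points. Nanos2, which keeps male germ cells out of meiosis, and Brdt, a testis bromodomain protein, followed at -8.22 and -7.37 points, and both passed the adjusted p alone (0.0348 for Nanos2 and 0.0341 for Brdt, limma). Nanos3, needed for survival of primordial germ cells, had 73.0, 63.4 and 67.2% in KO, against 67.7, 75.4 and 75.0% in WT, so its groups overlapped.

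Of 3 further testis genes, Slc25a31 and Tex14 were called lower and Tex101 was not, against 16.5% of all start regions called lower. Slc25a31, the ADP/ATP carrier of male germ cell mitochondria (start at 40708871 on chromosome 3), had 64.5, 68.7 and 63.5% in KO, against 79.8, 78.2 and 85.6% in WT, a difference of -15.6 points (limma adjusted p = 0.00125). Tex14, which keeps the bridges between dividing germ cells open, had 44.5, 40.6 and 40.5% in KO, against 52.2, 52.4 and 52.4% in WT, a difference of -10.5 points. Neither pair of groups overlapped, and the Tex14 window also holds the start of Rad51c, a DNA repair gene on the other strand. Tex101, a sperm membrane glycoprotein, had 68.6, 68.0 and 61.1% in KO, against 69.2, 66.7 and 69.0% in WT. The difference of -2.38 points (95% interval -8.32 to 3.57) turned to 0.014 points without KO replicate 3.

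Of the 27 germline starts with a WT mean of at least 50%, 23 were at 50% or more in KO, against 82.8% of all 5260 such starts. The exceptions were Hormad2 at 40.4%, Tex14 at 41.8%, Dazl at 48.6% and Sycp2 at 49.1% in KO. Of the 26 germline starts with a mean of at least 50% over all 6 samples, 15 were not called, and for 5 of these (Sycp1, Smc1b, Tex101, Tdrd9 and Piwil1) the 95% interval left out a loss of 10 points. For the other 10 a loss of that size lay within the interval, so they are not shown to be unchanged. These intervals are for the whole window and were not taken for single tiles. The start tile differed by -7.56 points at Tex101 (standard error 3.65) and by -6.79 points at Tdrd9 (standard error 3.15). At Sycp1 it differed by -2.25 points and at Smc1b by 6.99 points. The start tiles of these genes were not called, and they are not shown to be unchanged. In the tile that holds its start, Piwil1 differed by -11.5 points, with no overlap between groups. That tile was not called with p adjusted over all tiles (limma adjusted p = 0.0502). It was called lower in a fit over start tiles only (limma adjusted p = 0.0334). When leaving out each sample in turn, 9 of the 16 calls held in every fit. Besides Ddx4, genes near the limit of 10 points lost their call. Dmc1 was at -7.68 points without KO replicate 2, and at -9.80 and -9.81 points without WT replicate 1 or 3. Mael was at -8.87 points without KO replicate 1, and at -9.21 and -9.58 points without WT replicate 1 or 3. Piwil4 was at -9.94 points without KO replicate 2, and at -9.73 and -8.81 points without WT replicate 1 or 2. All of these kept the direction of the full set. Sycp3 was at -8.23 points without KO replicate 1 and -9.97 points without WT replicate 3, Tex14 at -9.87 and -9.81 points without KO replicate 2 or 3, and Stag3 at -8.82 points without KO replicate 1.

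Tile by tile, the loss was concentrated at the start itself in some genes and lay beside it in others. The tile that holds the start was called lower in 14 of 36 germline genes, against 9.12% of the start tiles of all genes, with p adjusted over all 1954255 tiles. Among start tiles of at least 50% mean methylation the count was 12 of 24 germline genes, against 15.4% of all such start tiles. Among start tiles at 10 to 50% it was 2 of 8, against 29.8%, and among those under 10% it was 0 of 4, against 0.448%. With samples centred on their median tile 10 of the 14 start tile calls held, and with samples scaled to one mean level 10 did. Start tiles of all genes were not counted under either step, so these counts have no background beside them. The start tile call of Ddx4 was lost without KO replicate 1 (-11.2 points) and without WT replicate 1 or 2, and that of Dmrtb1 without KO replicate 1 (-9.48 points) or 3 and without WT replicate 2 or 3. Both start tile calls also ended with no variance trend, at limma adjusted p = 0.0807 for Ddx4 and 0.0505 for Dmrtb1, and in a fit over start tiles only, at limma adjusted p = 0.157 for Ddx4 and 0.072 for Dmrtb1. The start tile of Ddx4 had 42.8, 67.5 and 60.1% in KO, against 77.4, 84.4 and 63.3% in WT, and the groups overlapped.

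Stk31 had the largest difference of any germline start tile. It had 36.1, 38.1 and 33.8% in KO, against 75.9, 86.0 and 81.8% in WT, a difference of -45.2 points (limma adjusted p = 1.58e-07), while the next tile inside the gene averaged 83.9% in KO and 88.6% in WT. Hormad2 had 16.1, 17.2 and 11.4% in its start tile in KO, against 39.9, 62.3 and 51.0% in WT, a difference of -36.2 points (limma adjusted p = 2.99e-06). The WT samples of Hormad2 were widely spread and still all lay above KO. At Slc25a31 the start tile averaged 62.9 ± 7.84% in KO and 87.4 ± 5.65% in WT, and at Tex14 48.5 ± 2.74% in KO and 71.6 ± 2.49% in WT (SD, n = 3 each).

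In 4 genes whose whole window was not called, the start tile alone was. Hormad1, the partner of Hormad2 on the axis, averaged 59.1 ± 2.77% in KO and 82.0 ± 1.82% in WT in that tile, while the tiles on both sides differed by -0.22 and 2.65 points. Dazl averaged 57.6 ± 1.37% in KO and 74.6 ± 0.838% in WT. Syce1, a central element protein, averaged 62.2 ± 2.23% in KO and 78.5 ± 2.49% in WT, and Brdt 69.96 ± 6.82% in KO and 84.3 ± 1.76% in WT. In a window of 500 bp on each side of the start, Dazl, Hormad1, Syce1, Nanos2 and Mei1 joined the called genes, while Syce2 and Dmc1 left them.

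The reverse pattern, a called window around a start tile that was not called, was found in 6 genes. Msh4 had its loss in the tile upstream, with 49.3% in KO and 81.6% in WT, and its start tile averaged 63.7% in KO and 71.9% in WT. Syce2 had a nearly unmethylated start tile, with 2.57, 1.51 and 1.89% in KO, against 7.26, 5.45 and 4.87% in WT, while the tile beyond it inside the gene averaged 48.7% in KO and 75.2% in WT. Dmc1 likewise had a low start tile, with 7.99 ± 1.23% in KO and 13.7 ± 3.24% in WT. Mael, Sycp3 and Stag3 completed the 6. Over all windows, 29 of 107 germline tiles were called lower, against 16.2% of all tiles, and 0 were called higher, against 0.0796% of all tiles. None of the 107 was higher at an unadjusted p under 0.05 either, and 15 of the 36 windows held no tile called lower, against 60.7% of the windows of all genes. With samples scaled to one mean level, 18 of the germline tiles were lower and 1 was higher, against 128517 lower and 30656 higher over all tiles, and with samples centred on their median tile 18 were lower and 0 higher, against 129769 lower and 18197 higher. Without either step the numbers over all tiles were 316257 lower and 1555 higher.

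**Figure D2:**
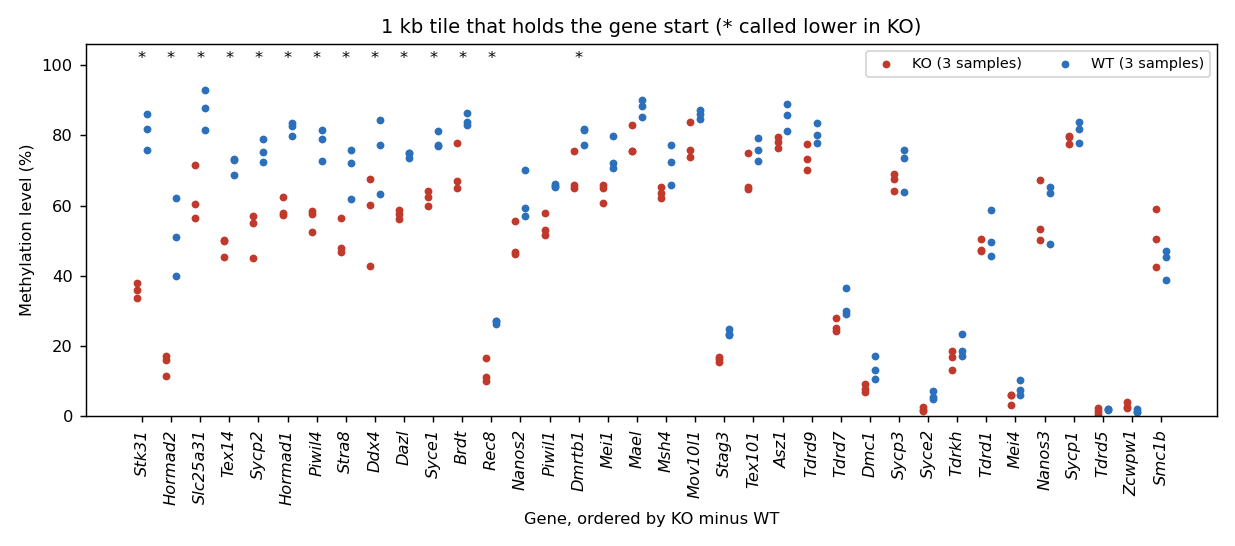
Methylation level in percent of the 1 kb tile that holds the start of each germline gene, 1 point per sample with KO left of WT, ordered by KO minus WT. Asterisks mark the 14 tiles called lower, from -45.2 points at Stk31 to -11.4 points at Dmrtb1.

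A few germline starts were almost free of methylation in both groups. The start tile of Tdrd5 had 0.716, 2.30 and 1.47% in KO, against 2.22, 1.93 and 2.16% in WT, and that of Zcwpw1 had 4.25, 2.48 and 2.75% in KO, against 1.22, 2.23 and 1.39% in WT. Mei4 averaged 5.13 ± 1.68% in KO and 8.04 ± 2.10% in WT in the same tile. None of these passed the test, and the groups overlapped at Tdrd5. Zcwpw1 had all KO samples above all WT samples, by 1.54 points in the mean (limma adjusted p = 0.372), and its called tile lay inside the gene, at 36.2% in KO and 53.9% in WT.

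Averaged over genes, the 16 called lower had 43.4% in KO and 60.7% in WT at the start tile, and 61.0% in KO and 75.2% in WT in the tile 1 kb downstream. From 2 kb on either side outward the difference lay between -10.3 and -4.20 points. The 15 methylated genes that were not called had 63.3% in KO and 72.3% in WT at the start tile, and differences between -6.11 and -1.03 points in the other tiles within 5 kb. The 5 genes under 50% that were not called dipped to 10.4% in KO and 12.7% in WT at the start. The genes were sorted by these same values, so the profile is a description.

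**Figure D3:**
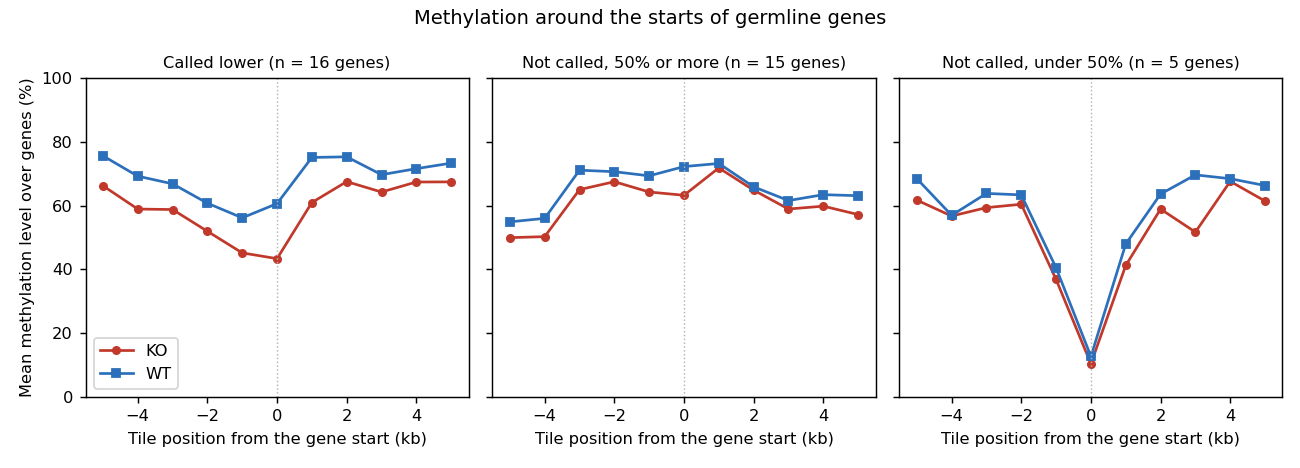
Mean methylation level in percent over genes in 1 kb tiles up to 5 kb on each side of the gene start, upstream to the left, KO as circles and WT as squares, for the 16 genes called lower, the 15 not called at 50% or more and the 5 not called under 50%. The called genes part most at the start tile, with 43.4% in KO and 60.7% in WT, and the lines of the last panel dip together at the start.

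Gene bodies of germline genes were lower in KO, as most gene bodies were. Of 39 bodies, 18 were called lower, with a limma p adjusted over all 15364 bodies under 0.05 and a loss of at least 5 points, a share of 46.2%, against a background of 53.3%. None was called higher, against 0.013% of all, none was higher at an unadjusted p under 0.05, and 38 of 39 had a lower mean in KO. The median difference was -4.58 points over the germline bodies and -5.37 points over all bodies. Every KO sample lay below every WT sample in 29 of the 39, a pattern seen in 81.1% of all bodies. With samples centred on their median tile 3 germline bodies (Rec8, Tdrd7 and Spo11) were called lower, against 18.8% of all bodies. With samples scaled to one mean level the same 3 were called lower, against 17.2% of all, and 2, Stk31 and Tex15, were called higher. Over all bodies, scaling changed the split from 8182 lower and 2 higher to 2646 lower and 881 higher.

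Called bodies came from every role. They were 7 of 15 genes of the piRNA pathway and germ granules, 2 of 10 of the axis and synaptonemal complex, 3 of 7 of recombination, 4 of 5 regulators and both further testis genes measured. Over all genes 53.3% of bodies were called lower. Rec8, with only 4 body tiles, had 59.1, 65.9 and 51.7% in KO, against 79.7, 73.0 and 73.0% in WT, a difference of -16.3 points (limma adjusted p = 0.00388). Tdrd7, a germ granule tudor protein that also works in the lens, had 56.9, 56.9 and 57.5% in KO over its 64 body tiles, against 71.2, 69.6 and 69.4% in WT, a difference of -12.9 points (limma adjusted p = 1.14e-05). Spo11, the enzyme that cuts DNA to start recombination, had 59.3, 58.1 and 62.2% in KO, against 70.5, 70.6 and 70.9% in WT, a difference of -10.8 points. These groups did not overlap, and Rec8 varied most between samples.

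Further called bodies lost between 5 and 10 points. Dmrtb1 had 52.0, 52.1 and 51.9% in KO, against 61.7, 60.8 and 62.1% in WT. Tex14 had 54.5, 54.6 and 55.4% in KO over 139 tiles, against 65.2, 63.3 and 63.9% in WT. Ddx4 had 65.7, 62.7 and 64.9% in KO, against 73.6, 70.9 and 72.1% in WT. All of these lacked overlap between groups. Tdrd1 had 67.8, 71.6 and 70.3% in its body in KO, against 76.7, 76.7 and 77.7% in WT. Piwil2, the Piwi protein of fetal and adult male germ cells, had 63.5, 63.4 and 63.3% in KO, against 72.3, 68.5 and 69.3% in WT. The differences were -9.50 (Dmrtb1), -9.31 (Tex14), -7.75 (Ddx4), -7.13 (Tdrd1) and -6.60 points (Piwil2). The other called bodies ran from -6.59 points at Msh4 to -5.15 points at Mei1, with Piwil4, Dmrt1, Mael, Stra8, Dazl, Sycp3, Tdrd5 and Slc25a31 between them. Leaving out 1 sample ended the body calls of Dazl (-5.59 and -5.32 points without WT replicate 1 or 2), Slc25a31 (-4.57 points without WT replicate 1) and Mei1 (-4.65 points without KO replicate 2 and -4.82 points without WT replicate 3). The spans of Dmrtb1, Mei1, Stag3 and Msh4 reach 19.8, 12.4, 7.995 and 1.25 kb upstream of the start used, so their bodies hold tiles around or before that start. At the other end of the order, Tex15, which acts in meiotic repair and in piRNA-directed methylation, differed by 0.053 points and Stk31 by -0.50 points, both with overlapping groups.

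Within bodies the loss was patchy. Of 1776 tiles in the 39 bodies, 216 were called lower, a share of 12.2%, against 16.2% of all tiles. Of the same 1776 tiles, 5 were called higher, against 0.0796% of all tiles. Tdrd7 alone had 32 of its 64 tiles called lower and Tex14 45 of its 139, and without these genes, chosen after their values were seen, the share was 8.84%. The largest loss was in Tdrd7 at chr4:45968001-45969000, inside the gene 3.47 kb from its low end, with 26.0, 16.9 and 25.5% in KO, against 87.2, 86.1 and 88.2% in WT. In Stag3, chr5:138275001-138276000, inside the gene span and upstream of the listed start, had 13.9, 16.1 and 18.3% in KO, against 67.6, 62.6 and 62.0% in WT. Further tiles with large losses lay in Brdt (chr5:107362001-107363000, 45.1% in KO and 82.2% in WT) and Tdrd9 (chr12:112012001-112013000, 24.1% in KO and 57.5% in WT). In all of these tiles the groups were clearly separate, and none lay within 1 kb of the listed start. The 5 tiles called higher were 2 in Stag3 and 1 each in Tdrd9, Tdrkh and Stk31, between 10.5 and 14.2 points.

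Loss at the start and loss in the body could fall on different genes. Of 33 genes with both measured, 10 were called lower in both, 6 at the start only, 5 in the body only and 12 in neither. Over the 12156 genes with both measured, 14.1% were called lower in both, 3.28% at the start only, 39.1% in the body only and 43.5% in neither. The Pearson r between the differences was 0.024, a description over 33 genes of the same 6 samples. Stk31 and Hormad2, which lost most at the start, differed by -0.50 and -2.02 points in the body, and Sycp2 by -1.89 points. Tdrd7 was the opposite case, at -5.41 points at the start and -12.9 points in the body.

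**Figure D4:**
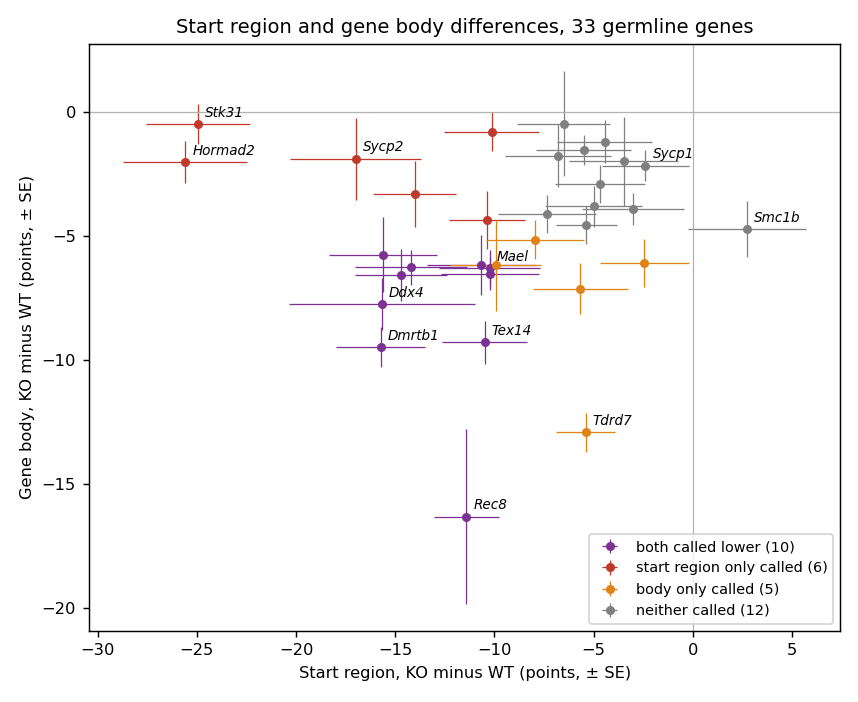
KO minus WT in points at the start region (x axis) and in the gene body (y axis) for the 33 germline genes with both measured, with standard errors as bars and colours for which of them was called lower. Stk31 and Hormad2 lie far left near 0 on the y axis, and Rec8 and Tdrd7 lie lowest.

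For the 6 genes without an entry in the promoter table, tiles within 1 kb of both ends of the gene span were read with no test, since the strand was not taken. At Spo11 the low-coordinate end, at 172977379 on chromosome 2, had 16.6, 15.1 and 18.1% in KO, against 42.4, 38.3 and 37.4% in WT, and the high-coordinate end averaged 66.7% in KO and 77.7% in WT. Tex15 averaged 47.5 ± 1.94% in KO and 60.0 ± 3.99% in WT at its low end, and Rnf17, a tudor protein of germ granules, 68.9 ± 6.64% in KO and 79.6 ± 0.983% in WT at its low end. At these 3 low ends every KO sample lay below every WT sample. The same held at the high ends of Spo11 and Tdrd6 and at the low end of Piwil2. At the other ends of the 6 genes the groups overlapped. Among all start regions, 55.3% had every KO sample below every WT sample, and gene ends were not counted over all genes. Both ends of Dmrt1, a testis transcription factor, were low, at 12.8% in KO and 16.0% in WT and at 1.75% in KO and 2.79% in WT. Piwil2 and Tdrd6, a chromatoid body protein, lay between 59.7 and 85.4% in KO at both ends, against 65.5 to 88.1% in WT.

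Further genes of the same pathways, from lists that do not overlap the 42 genes, were read in the same way. Of 21 further meiosis genes with a start region, 8 were called lower and 0 higher, against the background of 16.5% lower, with a median difference of -7.99 points. Among them Mnd1, a strand exchange factor, averaged 29.8 ± 0.625% in KO and 44.7 ± 3.12% in WT, and its partner Psmc3ip averaged 17.2 ± 3.04% in KO and 28.3 ± 2.33% in WT. Rec114, a partner of Mei4, averaged 53.8 ± 5.72% in KO and 69.0 ± 1.59% in WT. Of 13 further piRNA and germ granule genes, 4 were called lower, with a median of -5.60 points. These included Tex19.1, a testis gene, at 64.9 ± 4.10% in KO and 77.2 ± 2.01% in WT, Tdrd12, a tudor helicase, at 68.3 ± 2.91% in KO and 78.4 ± 1.14% in WT, and Henmt1, which methylates piRNA ends, at 62.1 ± 4.28% in KO and 73.2 ± 3.38% in WT. Single samples decided some of these calls. Psmc3ip was at -9.92 points without WT replicate 3, Tdrd12 at -8.53 and -9.70 points without KO replicate 1 or WT replicate 2, and Henmt1 at -8.97 and -9.45 points without KO replicate 1 or WT replicate 3. Rec114 differed by -3.15 points and Henmt1 by -9.43 points at the end of the gene span in place of the listed start. Within 500 bp Mnd1 was at -9.93 and Psmc3ip at -6.62 points. In the start tile alone Mnd1 differed by -0.92 points and Psmc3ip by -1.49 points (limma adjusted p = 0.295 and 0.0855). The start tile of Tex19.1 differed by -12.2 points (limma adjusted p = 0.0616). The start tiles of these genes were not called. With samples centred or scaled, Mnd1 and Rec114 were still called, and Psmc3ip, Tex19.1, Tdrd12 and Henmt1 were not.

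Genes of the machinery that silences germline genes mostly had low start regions. Of 18 measured, 2 were called lower, against 16.5% of all start regions. The median level was 16.4% in KO and 22.1% in WT. Dnmt3b, the other de novo methyltransferase, had 5.58, 4.95 and 2.42% in KO, against 28.4, 27.3 and 27.8% in WT, a difference of -23.5 points (limma adjusted p = 8.67e-07). Pcgf6, a subunit of the Polycomb complex that binds germline starts, averaged 18.5 ± 2.58% in KO and 30.5 ± 2.39% in WT, and within 500 bp of its start it differed by -3.62 points and was not called. In the start tile alone Dnmt3b differed by -2.19 points, so its loss lay beside the start, and Pcgf6 was not called with samples centred. Methylation levels do not show the deletion in Dnmt3a itself, whose body averaged 49.96 ± 1.11% in KO and 65.4 ± 0.729% in WT.

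Start regions of endothelial marker genes were low in both groups, with a median of 6.99% in KO and 17.9% in WT over 9 genes, 1 of them called lower. Leukocyte markers had a median of 64.5% in KO and 69.7% in WT over 5 genes (1 called), epithelial markers 39.4% in KO and 50.7% in WT over 5 (3 called), mesenchymal markers 4.997% in KO and 15.1% in WT over 3 (2 called) and erythroid markers 50.2% in KO and 57.8% in WT over 2 (0 called). Over all genes 16.5% of start regions were called lower. The part of other cell types in the germline differences was not tested. With 3 samples against 3, an exact permutation test of a single gene could not go below p = 0.1, so calls rest on limma's fit over all genes.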

How the data were processed

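DNA of sorted endothelial cells was read by tagmentation-based bisulfite sequencing, with 30 ng of input, 3 libraries per sample and paired reads of 100 bases, per the labels' protocols. The submitters' processing notes name BWA 0.7.8 and the build mm10. The methylation caller and any smoothing or coverage filter were not given in the sources used here. In the deposited table, each 1 kb tile of 1954255 has a fraction from 0 to 1 per sample, without coverage. Levels as small as 5.91e-191 occur, so they are not plain ratios of reads, and deviations of adjacent tiles correlated at 0.531 to 0.553.

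Fractions were multiplied by 100. Starts and strands came from RefSeq (GRCm38.p6), and gene spans from its gene table. KO and WT were compared with limma 3.58.1 (R 4.3.3) with a variance trend and Benjamini-Hochberg adjustment over all protein-coding starts, all bodies of at least 3 tiles or all tiles. Calls needed an adjusted p under 0.05 and 10 points (5 points for bodies). The code was tested on simulated data. Members, gene lists and limits were chosen with earlier results of these data known. Values per sample are given for up to 14 called start regions with the largest loss, up to 10 methylated uncalled ones with the smallest difference, the 6 lowest and up to 8 called bodies, and up to 3 called genes per further list. Alternatives were other windows, scalings, limits, gene sets and samples.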

Additional observations from a re-analysis of the deposited data

How the results depend on the processing

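The 16 germline start regions called lower were 12 to 16 when leaving out each sample in turn, the 29 tiles 25 to 31, the 18 bodies 16 to 20 and the 15 methylated start regions not called 14 to 18, with 2618 to 2815 start regions and 7860 to 8407 bodies over all genes. Centring on the median tile gave 5 start regions, 18 tiles and 3 bodies (1082 and 2882 over all genes). Scaling gave 4, 18 and 3 (1564 and 2646 over all genes), with 23 of 26 methylated start regions not called. A fit over the 15461 start tiles alone called 13 germline start regions and 1160 over all genes, and 14 germline start tiles were called with p adjusted over all tiles. A limit of 70% left 8 of 14 methylated start regions not called and 500 bp windows 9 of 24, against 15 of 26 in the main setting. A size minimum of 10 points gave 3 of 39 germline bodies, against 2859 of 15364 over all genes. No minimum gave 30 of 39, against 12201 of 15364. For start regions, 5 points gave 23 of 36 germline genes, against 6109 of 16077 over all genes. With no minimum they were 23 of 36, against 7154 of 16077. All annotated genes gave 5484 start regions and 12682 bodies.

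Small differences turned positive. Under centring these were Nanos3 (0.051), Piwil1 (0.23), Mei4 (0.44), Tdrkh (1.40), Tdrd9 (1.87), Tdrd5 (2.45), Sycp1 (2.49, start tile 2.64), Tex101 (2.52) and the Stk31 body (4.39). Under scaling they were Tdrd5 (0.61), Mov10l1 (0.72), Piwil1 (0.79), Nanos3 (0.83), Asz1 (1.36), Tdrd9 (2.81), Tex101 (3.06), Sycp1 (3.93, start tile 4.22) and the bodies of Mei1 (0.098) and Stk31 (5.47). Zcwpw1 turned at 500 bp (0.82) and at its start tile (1.54). Leaving out 1 sample at a time gave -3.72 to 0.014 for Tex101 (positive without KO replicate 3), -0.39 to 5.27 for Smc1b (negative without KO replicate 2), -0.91 to 0.92 for the Tex15 body (negative without KO replicate 2 or WT replicate 1, -0.41) and -1.28 to 0.073 for the Stk31 body (positive without WT replicate 1). The cause of these turns was not tested.

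Same-numbered KO and WT samples did not deviate together (r = 0.0056, -0.0032 and 0.011). The labels do not say whether equal numbers pair samples, and these values cannot decide it. With the replicate number as a block, 16 start regions, 29 tiles and 18 bodies were called (2663 and 8191 over all genes). No coverage minimum could be tried, since the table holds no coverage, and what depth limits is unknown.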

Other observations

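Start regions of genes used at other stages of the germline were also read, from lists chosen with earlier results known. Of 14 late spermatid genes measured, 6 were called lower and 0 higher, with a median difference of -8.90 points, against 16.5% lower over all genes. Tnp2, a transition protein that packs sperm DNA, had 34.6, 41.8 and 47.0% in KO, against 77.2, 72.3 and 67.2% in WT. Ldhc, the lactate dehydrogenase of sperm, averaged 48.4 ± 2.20% in KO and 64.2 ± 2.03% in WT, and Prm2, a protamine, 56.6 ± 3.31% in KO and 72.1 ± 3.01% in WT. Of 8 oocyte genes, 3 were called lower. Nobox, a transcription factor of early follicles, had 26.4, 24.4 and 18.2% in KO, against 62.7, 62.9 and 55.8% in WT. Figla, another such factor, averaged 65.5 ± 0.9751% in KO and 80.8 ± 2.54% in WT, and Zp3, an egg coat protein, 57.4 ± 4.34% in KO and 69.3 ± 4.31% in WT.

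Of 9 early germ cell and pluripotency genes, 3 were called lower, against 16.5% of all start regions. Pou5f1, which encodes the pluripotency factor OCT4 (start at 35506032 on chromosome 17), had 6.82, 5.78 and 4.33% in KO, against 42.5, 46.1 and 47.8% in WT. Its difference of -39.8 points (limma adjusted p = 4.87e-07) was larger than that of any of the 36 germline and meiosis start regions. Nanog, a further pluripotency factor, averaged 25.4 ± 2.21% in KO and 40.6 ± 2.21% in WT, but its start tile alone differed by -5.61 points (limma adjusted p = 0.268) and was not called. Kit, a receptor of germ cells and of several other cell types, averaged 22.3 ± 2.996% in KO and 33.4 ± 1.51% in WT. Kit was not called without KO replicate 1 (-9.43 points) or within 500 bp of its start (-4.17 points), and Zp3 was not called without KO replicate 3 (-9.46 points) or WT replicate 1 (-9.75 points). With samples centred on their median tile or scaled to one mean level, Kit and Zp3 were not called, and with scaling Figla was not.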
